A study of Triticum aestivum with 6 samples.

Results

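The genes described here encode the enzymes that make and break down abscisic acid (ABA), together with the aldehyde oxidases. They were chosen by protein name, and 57 of the 83219 genes in the table carried one of the names, which are best matches to proteins of rice, maize, grapevine and Arabidopsis. They comprised 3 genes for zeaxanthin epoxidase, 14 for 9-cis-epoxycarotenoid dioxygenase (NCED), 26 for molybdenum-containing aldehyde oxidases, 3 for molybdenum cofactor sulfurase, 6 for ABA 8'-hydroxylase and 5 for proteins named aldehyde oxidase GLOX. The name xanthoxin dehydrogenase, the enzyme between NCED and aldehyde oxidase, matched 0 genes. RNA-seq measured the transcripts of wheat seedling roots (Triticum aestivum, wild-type line JW1), with 3 libraries in each of 2 groups. All seedlings had germinated for 3 days, lost the endosperm, grown for 3 days on 2 mM nitrate and spent 2 days without nitrogen, and then stood for 3 h in medium with 5 µM ABA. The group 0N+ABA received 2 mM potassium chloride (0 mM nitrate) and the group 2N+ABA 2 mM potassium nitrate, so nitrate and chloride cannot be told apart, and groups without ABA were not analysed here. Nothing in the labels tells if the replicates were grown separately, and each p therefore reflects the spread among these libraries alone, which may be technical.

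ABA is a plant stress hormone that is made from carotenoids. In the plastid, zeaxanthin epoxidase makes the epoxy-carotenoids, and NCED cleaves them to xanthoxin, the step that usually sets the rate. Xanthoxin is converted to abscisic aldehyde, which an aldehyde oxidase turns into ABA. Aldehyde oxidases carry a molybdenum cofactor that must receive a sulfur atom from molybdenum cofactor sulfurase, while nitrate reductase uses the same cofactor without that sulfur. ABA is broken down mainly by 8'-hydroxylases of the cytochrome P450 family CYP707A, whose genes are known to respond to ABA itself. Some plant aldehyde oxidases oxidise indole-3-acetaldehyde, an auxin precursor, and the protein name alone does not tell which substrate a wheat enzyme prefers.

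Values are given as CPM (counts scaled to library size) in the order of replicates 1, 2 and 3, or as TPM (scaled to transcript length as well) where genes are compared, and log2 fold changes are 2N+ABA over 0N+ABA. The libraries held between 16907317 and 17735564 estimated counts. Of 53862 genes that passed the filter on low counts, 1210 (2.25%) passed edgeR's quasi-likelihood test for a group difference at a Benjamini-Hochberg adjusted p under 0.05, the test behind every adjusted p below unless another tool is named. One library stood apart: 0N+ABA replicate 2 had a first principal component score of -1.28, against -63.8 and -74.1 in the rest of its group and 38.8 to 59.9 with nitrate. One label names leaf tissue and the others root. The 165 genes of a leaf marker list summed to 262 to 399 TPM in 0N+ABA and 209 to 385 TPM in 2N+ABA, with 26 of them at 0. Of its 89 tested genes, 63 had a negative log2 fold change, against 52.3% of all tested genes, and the median was -0.27. At an unadjusted p below 0.05, 10 were lower and 4 higher, against 7.77% and 8.62% of all tested genes. By edgeR 1 fell, against 0.579% of all tested genes (TraesCS5B02G322900, for a chlorophyll a-b binding protein, 3.49 ± 0.357 CPM in 0N+ABA and 1.79 ± 0.303 CPM in 2N+ABA, SD, n = 3, adjusted p = 0.0490). The 7 genes for Casparian strip membrane proteins, which mark the root endodermis, summed to 117 to 198 TPM and 158 to 191 TPM, with 1 of them at 0. All 6 tested there had a positive log2 fold change, with a median of 0.35 and 0 calls by edgeR, and 0 had an unadjusted p below 0.05. The part of both lists in the results below was not tested. Embryo and aleurone markers summed to 38.3 to 46.6 TPM and 39.7 to 45.6 TPM over 26 genes, and guard cell markers to at most 0.27 TPM over 3 genes.

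With nitrate, aldehyde oxidase transcripts were lower, and no gene of the set for any other enzyme passed the test. Of the 57 genes, 42 passed the filter and were tested, 4 fell and 0 rose by edgeR. All 4 that fell encode aldehyde oxidases on chromosomes 5A, 5B and 5D, with log2 fold changes between -0.77 and -1.23. Of all tested genes, 0.579% fell and 1.67% rose. Of the 42, 29 had a negative log2 fold change, against 52.3% of all tested genes. The unadjusted p was under 0.05 in 16 lower and 1 higher gene, against 7.77% and 8.62% of all tested genes. DESeq2 and limma-voom called 0 rises as well. The groups did not overlap in 17 genes that were lower and 1 that was higher in 2N+ABA, against 10.8% and 11.3% of all tested genes. The median log2 fold change of the 42 was -0.21, against -0.016 over all tested genes and -0.27 over the leaf markers. Without 0N+ABA replicate 2, 10 of the genes fell, the 4 among them, where 3.19% of all tested genes fell. In bulk root RNA, fewer cells of a type and less RNA per cell cannot be told apart.

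**Figure D1:**
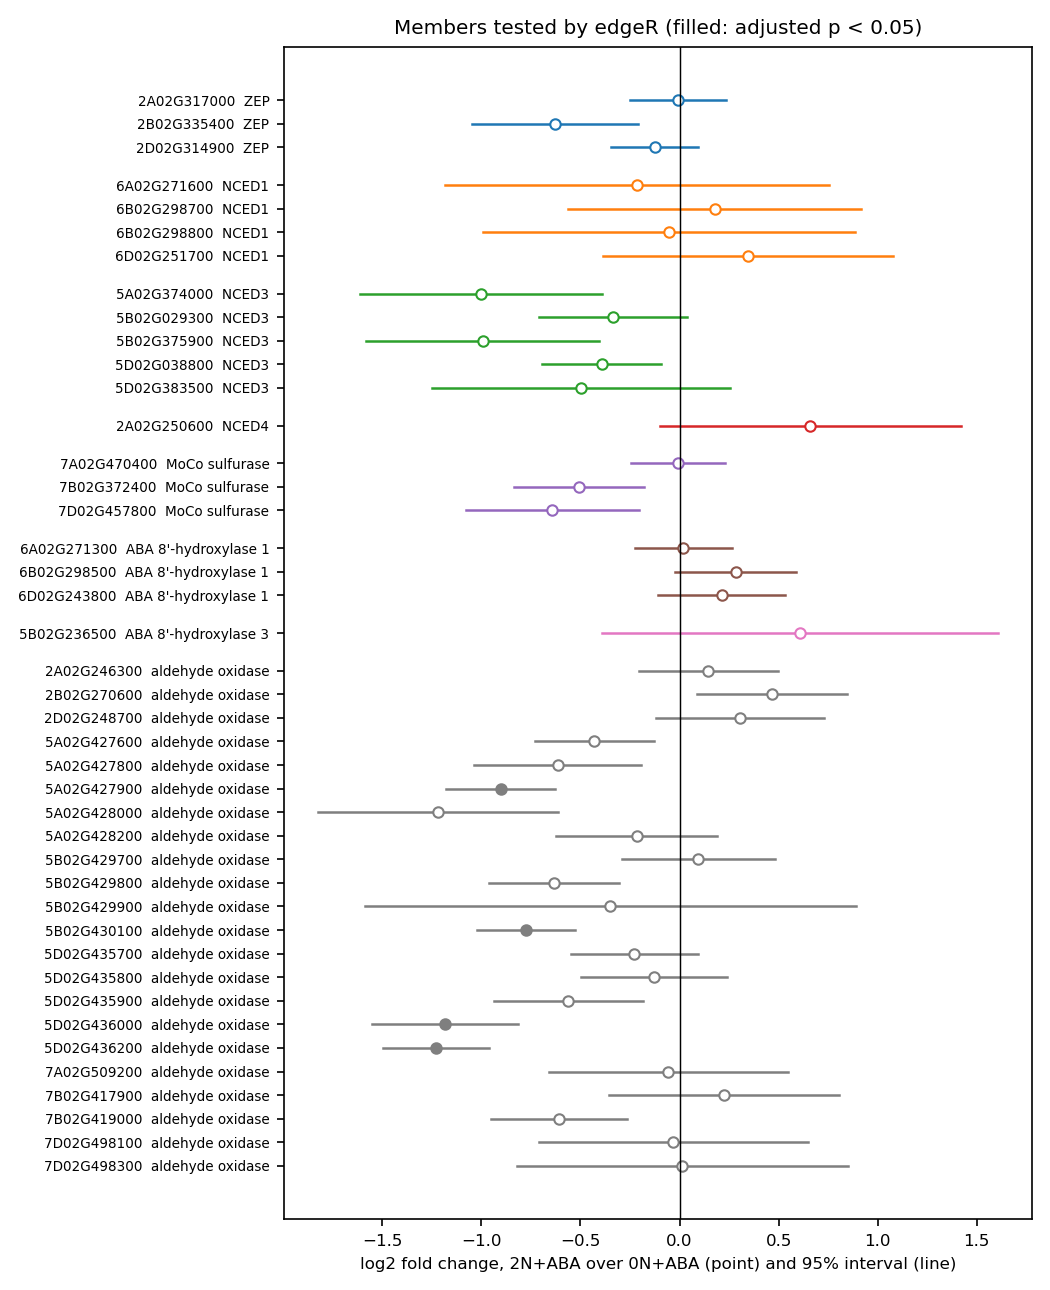
Log2 fold change (x axis, 2N+ABA over 0N+ABA) of each of the 42 tested genes, by enzyme, with 95% intervals from the edgeR fit over 3 libraries per group. The 4 filled points, all aldehyde oxidases of chromosome group 5, had an adjusted p under 0.05, and the points of ABA 8'-hydroxylase 1 lie between 0.018 and 0.28.

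Zeaxanthin epoxidase, which forms the epoxy-carotenoid substrates, was measured in 3 copies, and 0 passed the test. TraesCS2B02G335400 on chromosome 2B stood at 39.5, 31.2 and 49.9 CPM in 0N+ABA and 26.3, 29.7 and 22.1 CPM in 2N+ABA, so every library with nitrate lay below every library without it. Its log2 fold change was -0.63 (SE 0.183, adjusted p = 0.132), and it passed only without 0N+ABA replicate 2 (adjusted p = 0.0159). The copy on 2D, TraesCS2D02G314900, stood at 25.1, 22.3 and 24.2 CPM in 0N+ABA and 21.4, 22.0 and 22.2 CPM in 2N+ABA, a narrow gap of -0.13 on the log2 scale. TraesCS2A02G317000 on 2A stood at 25.6, 27.9 and 23.6 CPM in 0N+ABA and 24.3, 27.3 and 25.02 CPM in 2N+ABA, and its groups overlapped (95% interval of the log2 fold change -0.25 to 0.23). The 3 copies together summed to 90.2, 81.3 and 97.7 CPM in 0N+ABA and to 72.0, 79.0 and 69.3 CPM in 2N+ABA.

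NCED genes fell into 3 name groups after the rice proteins NCED1, NCED3 and NCED4, and the NCED3 group held most of the transcripts. Its 6 genes summed to 74.2, 98.2 and 109 TPM in 0N+ABA and to 71.01, 63.96 and 60.8 TPM in 2N+ABA. On this scale, which accounts for transcript length, the sums with nitrate lay below all sums without it, and 0N+ABA replicate 1 was close to the nitrate libraries. All 5 tested NCED3 genes had negative log2 fold changes, between -1.001 and -0.34, and 0 of them passed edgeR.

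The largest differences were in a pair on 5A and 5B at modest levels. TraesCS5A02G374000 stood at 13.6, 16.9 and 20.5 CPM in 0N+ABA and 10.8, 9.70 and 5.02 CPM in 2N+ABA (log2 fold change -1.001, SE 0.267, adjusted p = 0.105). TraesCS5B02G375900 stood at 8.26, 13.1 and 14.6 CPM in 0N+ABA and 7.66, 6.04 and 4.34 CPM in 2N+ABA (log2 fold change -0.99, SE 0.257, adjusted p = 0.0961). In both genes the groups did not overlap, and DESeq2 called both lower (adjusted p = 0.0145 and 0.0154), where it called 1.28% of all its genes lower. The third gene of this kind, TraesCS5D02G383500 on 5D, stood at 5.34, 12.2 and 13.7 CPM in 0N+ABA and 8.41, 8.36 and 5.41 CPM in 2N+ABA, with 0N+ABA replicate 1 just below the lowest nitrate library (95% interval -1.25 to 0.26).

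The abundant NCED3 genes differed less. TraesCS5D02G038800 stood at 88.9, 107 and 119 CPM in 0N+ABA and 86.6, 76.8 and 76.2 CPM in 2N+ABA, without overlap but close at the edge (log2 fold change -0.39, adjusted p = 0.184). TraesCS5B02G029300 stood at 49.2, 73.0 and 74.6 CPM in 0N+ABA and 49.6, 55.1 and 51.1 CPM in 2N+ABA, and the groups overlapped through 0N+ABA replicate 1 (log2 fold change -0.34, adjusted p = 0.355). The neighbouring TraesCS5B02G029400 had at most 0.115 CPM in any library and was not tested.

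The single NCED4 gene with a clear level pointed the other way. TraesCS2A02G250600 stood at 5.85, 16.6 and 14.8 CPM in 0N+ABA and 17.2, 24.3 and 17.4 CPM in 2N+ABA, with every nitrate library above every other library, and 0N+ABA replicate 1 far below its group. Its log2 fold change of 0.66 had a wide interval (-0.10 to 1.42, adjusted p = 0.377). The other NCED4 genes, on 2B and 2D, had 0 counts in all libraries and at most 0.488 CPM. NCED1 genes were scarce, with 1.12 to 2.40 TPM per library summed over 5 genes. TraesCS6A02G271600 stood at 0.689, 2.69 and 1.47 CPM in 0N+ABA and 1.37, 1.46 and 1.35 CPM in 2N+ABA, and TraesCS6D02G251700 at 1.09, 1.202 and 1.30 CPM in 0N+ABA and 1.77, 0.854 and 1.92 CPM in 2N+ABA. In both, the groups overlapped, and the intervals of the log2 fold change (-1.18 to 0.76 and -0.39 to 1.08) are too wide to separate a fall from a rise.

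**Figure D2:**
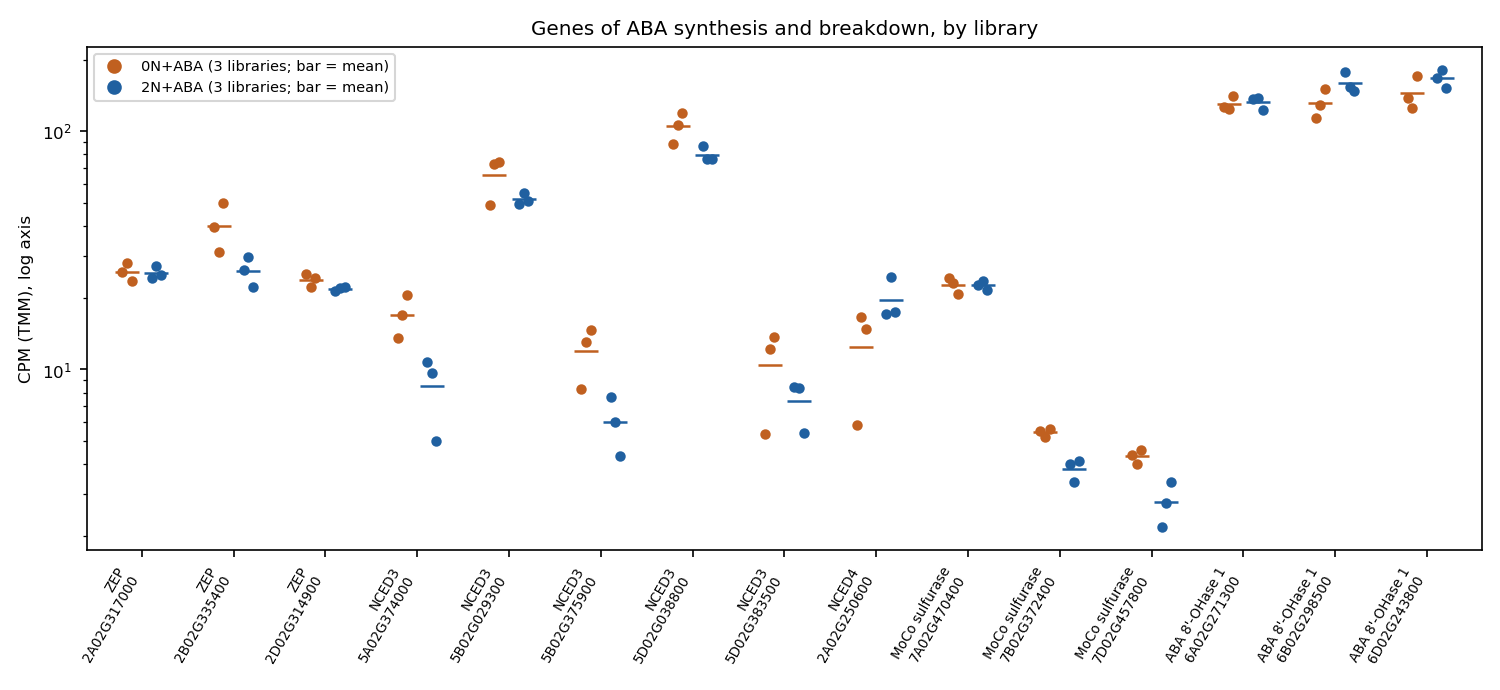
CPM (log axis) of the zeaxanthin epoxidase (ZEP), NCED3, NCED4, molybdenum cofactor (MoCo) sulfurase and ABA 8'-hydroxylase 1 genes with a mean of at least 1 CPM, 1 point per library and a bar at each group mean. The NCED3 means are all lower in 2N+ABA, most in TraesCS5A02G374000, while the 3 hydroxylase genes overlap between the groups at 114 CPM or more.

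The aldehyde oxidases, a family that includes the enzyme of the last step of ABA synthesis, showed the clearest difference. Which of these genes act in that step was not tested. Summed over 26 genes they stood at 488, 526 and 524 CPM in 0N+ABA and at 341, 329 and 328 CPM in 2N+ABA, so the sum with nitrate was 64.8% of that without. Among the 22 tested aldehyde oxidase genes, edgeR called 4 lower and 0 higher, where its shares over all tested genes were 0.579% and 1.67%. Before adjustment, p lay below 0.05 for 10 genes with less transcript and 1 with more, where all tested genes gave 7.77% and 8.62%. Negative log2 fold changes made up 16 of the 22, where the share over all tested genes was 52.3%. The median of the 22 was -0.29. In all, 24 of the 26 genes matched a single maize protein, indole-3-acetaldehyde oxidase. Most of them stand in runs of neighbouring gene IDs, as tandem copies do, with 6 genes on 5A, 5 on 5B and 5 on 5D. How the authors' counting divided reads among such similar copies is not given in the sources used here, so values of single copies are less certain than the sums.

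The runs on chromosome group 5 carried the difference in the aldehyde oxidase sum. Their 16 genes summed to 441, 446 and 469 CPM in 0N+ABA and to 273, 268 and 263 CPM in 2N+ABA, with groups far apart and little spread. By chromosome, the sums with nitrate were 75.7% of those without on 5A, 60.6% on 5B and 49.1% on 5D. Of the 14 genes tested there, 13 had a negative log2 fold change and 4 fell, against 52.3% and 0.579% of all tested genes. Outside these runs, 28 genes of the whole set were tested. All 4 falls of the set lie in the runs, so the 0 falls outside them follow from the split and are not a test of it. Of the 28, 0 rose by edgeR, and their median log2 fold change was -0.020. At an unadjusted p under 0.05, 7 of them were lower and 1 higher, against 7.77% and 8.62% of all tested genes. Their groups did not overlap in 8 lower and 1 higher gene, against 10.8% and 11.3% of all tested genes.

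In each run the gene with the highest ID was the most abundant. TraesCS5D02G436200, the last on 5D, stood at 144, 124 and 145 CPM in 0N+ABA and 60.6, 62.2 and 53.2 CPM in 2N+ABA. It fell 2.34-fold (log2 fold change -1.23, SE 0.117, adjusted p = 0.00191) and passed the test under all 14 alternatives. TraesCS5B02G430100, the last on 5B, stood at 99.9, 98.1 and 93.2 CPM in 0N+ABA and 53.1, 62.9 and 54.1 CPM in 2N+ABA. It fell 1.71-fold (log2 fold change -0.77, SE 0.109, adjusted p = 0.0118), a call that did not hold when 2N+ABA replicate 1 or 3 was left out (adjusted p = 0.0925 and 0.0708). TraesCS5A02G428200, the last on 5A, stood at 60.2, 91.2 and 58.7 CPM in 0N+ABA and 60.6, 55.1 and 65.1 CPM in 2N+ABA, with overlapping groups and the highest value in 0N+ABA replicate 2. Its log2 fold change was -0.22 (95% interval -0.62 to 0.19, adjusted p = 0.613), and 0.027 without 0N+ABA replicate 2.

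These 3 genes held 54.7% to 60.6% of the aldehyde oxidase TPM in the 0N+ABA libraries and 49.5% to 53.1% in the 2N+ABA libraries. Without nitrate the 5D gene stood above the 5A gene, and with nitrate both were at about the same count. The log2 ratio of TraesCS5D02G436200 to TraesCS5A02G428200, in CPM, was 1.26, 0.44 and 1.30 in 0N+ABA and -0.0014, 0.17 and -0.29 in 2N+ABA. The group means of this ratio differed by -1.04 (2N+ABA minus 0N+ABA, exact permutation test, two-sided, p = 0.1, the smallest p that 3 against 3 libraries allow). For the 5D to the 5B gene the difference was -0.45 without overlap (exact permutation p = 0.1), and for the 5B to the 5A gene -0.59 with overlapping groups (exact permutation p = 0.2). The 3 ratios were chosen after the values were seen, and the exact permutation p adjusted over them was 0.15, 0.15 and 0.2.

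The other genes that fell belong to the runs on 5D and 5A. TraesCS5D02G436000 stood at 37.3, 40.1 and 50.3 CPM in 0N+ABA and 21.7, 19.0 and 15.5 CPM in 2N+ABA, a 2.27-fold fall (log2 fold change -1.18, SE 0.161, adjusted p = 0.0106) that also passed under all 14 alternatives. TraesCS5A02G427900 stood at 14.5, 15.1 and 16.9 CPM in 0N+ABA and 9.21, 7.81 and 7.83 CPM in 2N+ABA, with a fall of 1.87-fold (SE of the log2 fold change 0.121, adjusted p = 0.00984), lost without 2N+ABA replicate 3 (adjusted p = 0.0571). In both genes the highest nitrate library stayed well below the lowest library without nitrate. TraesCS5A02G428000 stood at 3.10, 4.06 and 4.78 CPM in 0N+ABA and 2.23, 1.71 and 1.18 CPM in 2N+ABA. Its log2 fold change of -1.22 was as large, at a lower level, and missed the threshold (adjusted p = 0.0584), though DESeq2 called it (adjusted p = 0.013).

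A further set of genes in the runs had groups that did not overlap and an adjusted p above 0.05. TraesCS5B02G429800 stood at 7.92, 8.24 and 10.2 CPM in 0N+ABA and 5.21, 5.92 and 5.86 CPM in 2N+ABA (adjusted p = 0.0662). TraesCS5A02G427800 stood at 17.2, 17.5 and 27.2 CPM in 0N+ABA and 13.3, 12.6 and 14.5 CPM in 2N+ABA (adjusted p = 0.142). In these, as in the next pair, every nitrate library was the lower one. TraesCS5A02G427600 stood at 15.9, 13.9 and 18.5 CPM in 0N+ABA and 11.1, 12.0 and 12.8 CPM in 2N+ABA (adjusted p = 0.149). TraesCS5D02G435900 stood at 12.7, 9.67 and 12.3 CPM in 0N+ABA and 8.75, 6.34 and 8.34 CPM in 2N+ABA (adjusted p = 0.133). All of these were called lower without 0N+ABA replicate 2, with adjusted p = 0.0337, 0.0455, 0.0361 and 0.0339 in the order given.

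The rest of the runs overlapped between the groups. TraesCS5D02G435700 stood at 16.2, 12.7 and 16.5 CPM in 0N+ABA and 14.2, 11.4 and 13.1 CPM in 2N+ABA. TraesCS5D02G435800 stood at 6.71, 7.44 and 9.43 CPM in 0N+ABA and 8.01, 6.47 and 7.10 CPM in 2N+ABA. Both lie at the low-ID end of the 5D run, where the differences were small, with log2 fold changes of -0.23 and -0.13. TraesCS5B02G429700 stood at 3.16, 3.72 and 2.95 CPM in 0N+ABA and 3.78, 3.11 and 3.61 CPM in 2N+ABA, the single tested gene of the runs with a positive log2 fold change (0.10). TraesCS5B02G429900 stood at 1.26, 0.343 and 1.83 CPM in 0N+ABA and 1.03, 1.16 and 0.507 CPM in 2N+ABA, near the limit of what these depths resolve. TraesCS5A02G427700 and TraesCS5B02G429600 stayed under 1 CPM in every library and were not tested.

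**Figure D3:**
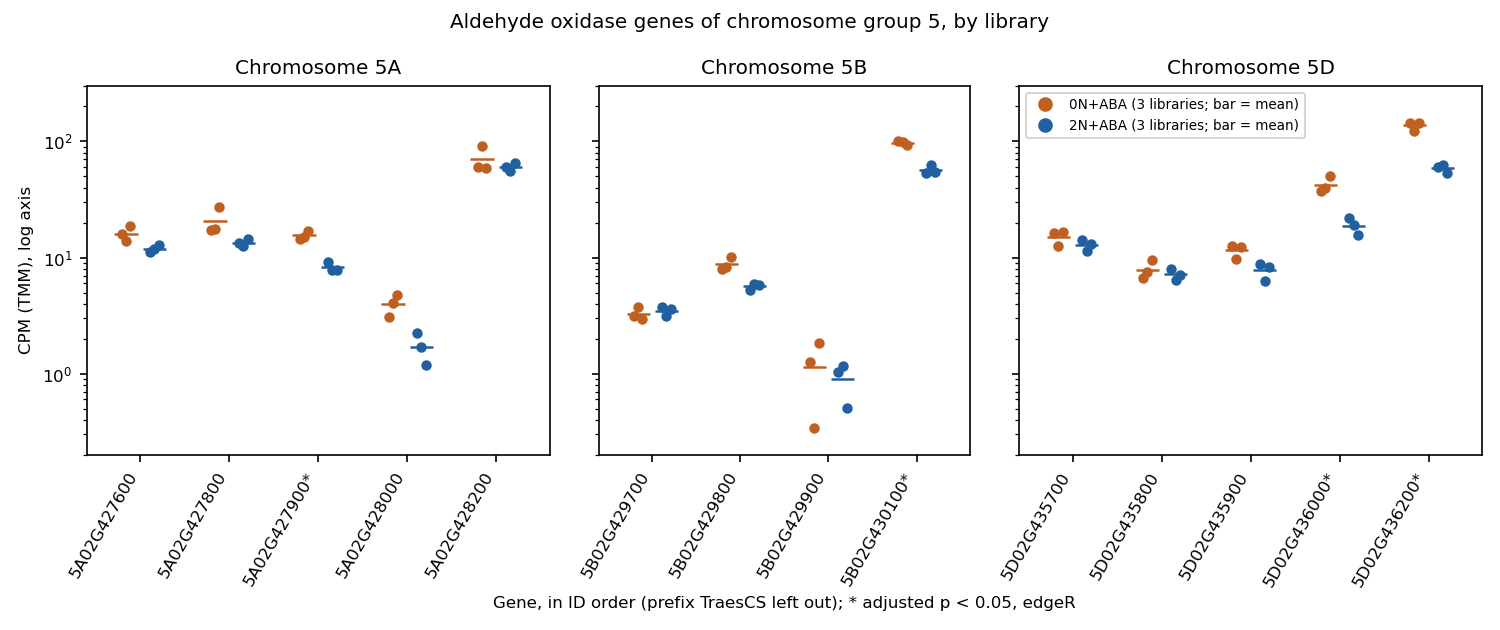
CPM (log axis) of the 14 tested aldehyde oxidase genes of chromosomes 5A, 5B and 5D in ID order, 1 point per library and a bar at each group mean. The last gene of each run is the highest, and the nitrate libraries of TraesCS5D02G436200 (53.2 to 62.2 CPM) lie well below the others (124 to 145 CPM), while those of TraesCS5A02G428200 overlap.

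Aldehyde oxidase genes on other chromosomes gave no call. On chromosome group 2 all 3 log2 fold changes were positive. TraesCS2B02G270600 stood at 5.91, 7.56 and 6.19 CPM in 0N+ABA and 7.55, 10.7 and 8.96 CPM in 2N+ABA, with its lowest nitrate library just under the highest one without (log2 fold change 0.47, adjusted p = 0.209). TraesCS2A02G246300 stood at 9.35, 11.9 and 8.08 CPM in 0N+ABA and 10.6, 10.4 and 11.4 CPM in 2N+ABA, and TraesCS2D02G248700 at 3.44, 4.64 and 3.66 CPM in 0N+ABA and 5.66, 4.09 and 4.73 CPM in 2N+ABA. Both overlapped between the groups, with 95% intervals of -0.20 to 0.49 and -0.12 to 0.73.

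On chromosome group 7, TraesCS7B02G419000 stood at 9.12, 12.0 and 10.4 CPM in 0N+ABA and 7.84, 6.16 and 6.65 CPM in 2N+ABA, lower in every nitrate library (log2 fold change -0.61, adjusted p = 0.0841). On the same chromosome, TraesCS7B02G417900 stood at 9.53, 22.1 and 16.3 CPM in 0N+ABA and 19.8, 17.3 and 18.8 CPM in 2N+ABA and overlapped. TraesCS7D02G498100 stood at 6.08, 11.3 and 5.90 CPM in 0N+ABA and 9.61, 5.25 and 7.95 CPM in 2N+ABA. In this gene, as in TraesCS7B02G417900 and the next, 0N+ABA replicate 2 was the highest of its group. TraesCS7D02G498300 stood at 2.52, 8.30 and 4.19 CPM in 0N+ABA and 5.49, 5.12 and 4.56 CPM in 2N+ABA. TraesCS7A02G509200 stood at 1.26, 1.55 and 0.943 CPM in 0N+ABA and 1.14, 1.34 and 1.13 CPM in 2N+ABA, and the groups overlapped in all 3. The genes named probable aldehyde oxidase 4 and putative aldehyde oxidase-like protein had at most 0.114 CPM and 0 counts.

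The 5 genes named aldehyde oxidase GLOX are, by the alternative name in the table, glyoxal oxidases, copper enzymes that share the name and not the cofactor. Together they held 0.177 to 0.515 CPM per library in 0N+ABA and 0.229 to 0.488 CPM in 2N+ABA. None was tested, and 1 had 0 counts in all libraries, so a difference was not detectable at this depth, where 3 counts in a library correspond to 0.169 to 0.183 CPM.

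Molybdenum cofactor sulfurase, which activates aldehyde oxidases, had 3 copies on chromosome group 7 and gave 0 calls. The most abundant, TraesCS7A02G470400, stood at 24.3, 23.1 and 20.7 CPM in 0N+ABA and 22.7, 23.5 and 21.5 CPM in 2N+ABA and overlapped (95% interval -0.25 to 0.23). TraesCS7B02G372400 stood at 5.51, 5.21 and 5.60 CPM in 0N+ABA and 4.004, 3.35 and 4.11 CPM in 2N+ABA (log2 fold change -0.51, SE 0.144, adjusted p = 0.125). TraesCS7D02G457800 stood at 4.36, 4.01 and 4.599 CPM in 0N+ABA and 2.17, 2.74 and 3.38 CPM in 2N+ABA (log2 fold change -0.64, SE 0.192, adjusted p = 0.141). In these less abundant copies every nitrate library lay below every library without nitrate, and the unadjusted p was 0.00726 and 0.00938.

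ABA breakdown genes included the 3 with the highest mean TPM of the set. Of 4 tested breakdown genes 0 were called by edgeR and 0 had an unadjusted p below 0.05, where 2.25% of all tested genes were called. So few tested genes do not set this class apart from all genes, and its difference from the aldehyde oxidases was not tested. The 3 genes for ABA 8'-hydroxylase 1 summed to 194, 190 and 234 TPM in 0N+ABA and to 239, 222 and 212 TPM in 2N+ABA, with overlapping groups. TraesCS6B02G298500 stood at 114, 129 and 149.99 CPM in 0N+ABA and 177, 153 and 148 CPM in 2N+ABA. TraesCS6D02G243800 stood at 138, 125 and 170.0 CPM in 0N+ABA and 168, 181 and 152 CPM in 2N+ABA. Their log2 fold changes were 0.28 and 0.21, with adjusted p = 0.341 and 0.512. TraesCS6A02G271300 stood at 127, 124 and 141 CPM in 0N+ABA and 136, 138 and 123 CPM in 2N+ABA (log2 fold change 0.018). The 95% intervals of -0.021 to 0.59, -0.11 to 0.53 and -0.23 to 0.26 do not reach a log2 fold change of 1 in either direction in any of the 3 copies. The ABA 8'-hydroxylase 3 genes were scarce, with sums of 0.861 to 1.66 CPM and 1.30 to 2.44 CPM. One of them, TraesCS5B02G236500, was tested (log2 fold change 0.61, 95% interval -0.39 to 1.61).

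Per transcript length, the order of the genes by mean TPM over both groups began with breakdown, and below it the order depended on the group. The 3 ABA 8'-hydroxylase 1 genes came first, with means over the 6 libraries of 77.7, 73.6 and 63.9 TPM for the copies on 6D, 6B and 6A. The other levels in this order are mean ± SD (n = 3). In 0N+ABA the 3 copies overlapped, and in 2N+ABA the 6A copy lay below the other two in every library. The NCED3 genes TraesCS5D02G038800 (44.4 ± 6.24 TPM in 0N+ABA and 32.7 ± 2.99 TPM in 2N+ABA) and TraesCS5B02G029300 (26.4 ± 5.56 TPM in 0N+ABA and 20.2 ± 0.501 TPM in 2N+ABA) followed. The aldehyde oxidase gene TraesCS5D02G436200 had 29.6 ± 2.82 TPM in 0N+ABA and 12.2 ± 0.770 TPM in 2N+ABA, and TraesCS5B02G430100 had 21.3 ± 0.855 TPM in 0N+ABA and 12.0 ± 0.729 TPM in 2N+ABA. Without nitrate TraesCS5D02G436200 had the higher mean and overlapped TraesCS5B02G029300, and with nitrate it stood below it, at the level of the zeaxanthin epoxidase gene TraesCS2B02G335400 (18.05 ± 4.31 TPM in 0N+ABA and 11.2 ± 1.32 TPM in 2N+ABA).

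ABA 8'-hydroxylase 1 and NCED1 genes are neighbours by ID on 2 chromosomes, a breakdown enzyme beside a synthesis enzyme. On 6A their IDs differ by 300, and on 6B by 200 and 300, whereas on 6D they differ by 7900 and 8000. The levels of the neighbours were far apart in every library. On 6B, TraesCS6B02G298500 had 67.7 ± 9.17 TPM in 0N+ABA and 79.5 ± 8.73 TPM in 2N+ABA, whereas the NCED1 genes TraesCS6B02G298700 and TraesCS6B02G298800 had means over the 6 libraries of 0.175 and 0.525 TPM.

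Among the genes that share the molybdenum cofactor with the aldehyde oxidases, those for nitrate use moved the other way. Of 7 tested nitrate reductase genes, edgeR called 6 higher and 0 lower, and the median log2 fold change was 2.08. The sum over all 9 nitrate reductase genes, tested or not, went from 285, 152 and 253 CPM in 0N+ABA to 1007, 1260.5 and 650.3 CPM in 2N+ABA, with 0N+ABA replicate 2 the lowest. The 4 with the smallest p, TraesCS6A02G326200, TraesCS6A02G017500, TraesCS6B02G356800 and TraesCS7A02G078500, rose by 4.58, 2.91, 2.08 and 3.34 on the log2 scale. TraesCS7A02G078500 was scarce, at 0.0574, 0.114 and 0.177 CPM in 0N+ABA (3 counts or fewer) and 0.972, 1.40 and 1.35 CPM in 2N+ABA. Its log2 fold change lay between 1.97 and 3.74 over 13 alternatives. Of 30 further tested genes for cofactor synthesis, molybdate transport and other molybdoenzymes, 1 rose and 0 fell, with a median of 0.11. In this list 24 log2 fold changes were positive. At an unadjusted p under 0.05, 5 genes were higher and 0 lower, against 8.62% and 7.77% of all tested genes. The sum over the list was 519, 483 and 524 CPM in 0N+ABA and 579, 604 and 586 CPM in 2N+ABA, without overlap. The gene that rose, TraesCS2D02G496500, is matched to molybdate transporter 2, and it stood at 27.7, 33.8 and 39.3 CPM in 0N+ABA and 68.9, 68.4 and 63.3 CPM in 2N+ABA (log2 fold change 0.99, SE 0.138, adjusted p = 0.0114). It missed the threshold with 2N+ABA replicate 1 left out (adjusted p = 0.0775). The copies on 2A and 2B, TraesCS2A02G496200 and TraesCS2B02G524500, had log2 fold changes of 0.59 and 0.65 without overlap (adjusted p = 0.0720 and 0.0711).

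Upstream of ABA, the plastid isoprenoid pathway supplies the carotenoid precursors. Of its 37 tested genes, 0 rose and 0 fell by edgeR, 36 had a negative log2 fold change, and the median was -0.51. The unadjusted p was under 0.05 in 11 lower and 0 higher genes, against 7.77% and 8.62% of all tested genes. The gene with the smallest p was TraesCS1B02G411100, for a probable 1-deoxy-D-xylulose-5-phosphate synthase (5.76 ± 0.653 CPM in 0N+ABA and 3.29 ± 0.739 CPM in 2N+ABA, adjusted p = 0.0735). The sum over the list was 575, 373 and 686 CPM in 0N+ABA and 363, 460 and 321 CPM in 2N+ABA, so 0N+ABA replicate 2 lay among the nitrate libraries. Without that library 14 genes of the list fell, where 3.19% of all tested genes fell. A list of carotenoid enzymes gave 1 fall and 0 rises among 31 tested genes by edgeR, with a median of -0.067. Over all tested genes, 0.579% fell and 1.67% rose. In the carotenoid list, 2 genes were lower and 1 higher at an unadjusted p under 0.05, against 7.77% and 8.62% of all tested genes. Most of these enzymes lie between that pathway and zeaxanthin epoxidase. Lycopene epsilon cyclase, carotene epsilon-monooxygenase and violaxanthin de-epoxidase, also in the list, do not. The gene that fell was TraesCS2B02G414500 on 2B, for beta-carotene 3-hydroxylase, which makes zeaxanthin. It stood at 14.4, 16.0 and 12.8 CPM in 0N+ABA and 7.61, 9.09 and 8.45 CPM in 2N+ABA (log2 fold change -0.78, SE 0.128, adjusted p = 0.0224). It missed the threshold when 0N+ABA replicate 1 or any of the nitrate libraries was left out (adjusted p = 0.079, 0.119, 0.0573 and 0.0956) and with the replicate number as a block (adjusted p = 0.0549). Carotenoid cleavage enzymes other than NCED, some of which lead to strigolactones, gave 0 calls by edgeR among 11 tested genes, with 2 lower and 1 higher at an unadjusted p under 0.05. In that list 8 of the 11 had a negative log2 fold change, the median was -0.53, and the sums of 86.99, 93.02 and 96.5 CPM in 0N+ABA lay above those of 85.7, 79.3 and 74.7 CPM in 2N+ABA. The smallest p there was that of TraesCS5D02G002900 (1.00 ± 0.105 CPM in 0N+ABA and 0.500 ± 0.117 CPM in 2N+ABA, adjusted p = 0.147).

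Over the 3 lists of genes downstream of ABA synthesis or beside it, calls were about as frequent as the 2.25% over all tested genes. At an unadjusted p under 0.05, 7.77% of all tested genes were lower and 8.62% higher. The list meant for ABA conjugation and transport gave 0 calls by edgeR among 21 tested genes, with a median of -0.12. Its unadjusted p fell below 0.05 in 2 lower genes and 0 higher ones. No protein name in it states ABA conjugation. Of its 28 genes, 15 are named UDP-glycosyltransferase 71K1, and whether these act on ABA was not tested. The list therefore cannot tell if genes for ABA conjugation differed. The smallest p belonged to TraesCS2B02G230800, matched to UDP-glycosyltransferase 71K1 (1.65 ± 0.771 CPM in 0N+ABA and 0.767 ± 0.309 CPM in 2N+ABA, adjusted p = 0.248). Auxin synthesis genes, listed because the aldehyde oxidases are named for an auxin precursor, gave 0 calls by edgeR among 39 tested, with 2 higher and 2 lower at an unadjusted p under 0.05. The smallest p was that of TraesCS6B02G260700, for the bifunctional nitrilase/nitrile hydratase NIT4 (27.01 ± 0.920 CPM in 0N+ABA and 39.3 ± 4.61 CPM in 2N+ABA, adjusted p = 0.0518), which DESeq2 called higher (adjusted p = 0.0133). The list holds 9 genes of that name, and their part in auxin synthesis was not tested. Of 78 tested genes for ABA receptors, phosphatases, kinases and transcription factors, 2 rose and 1 fell. They encode SnRK2 kinases, with 142 ± 5.58 CPM in 0N+ABA and 212 ± 15.4 CPM in 2N+ABA for TraesCS1D02G218200, 58.8 ± 7.62 CPM in 0N+ABA and 91.5 ± 8.08 CPM in 2N+ABA for TraesCS1B02G229400 and 47.1 ± 10.4 CPM in 0N+ABA and 27.3 ± 1.82 CPM in 2N+ABA for TraesCS2A02G163800 (SD, n = 3). None of these calls held when any 1 library other than 0N+ABA replicate 2 was left out (adjusted p between 0.0858 and 0.182). Without 0N+ABA replicate 2, 8 genes of this list rose and 7 fell, where 2852 of all 54991 tested genes rose and 1755 fell. With all libraries, 14 of the 78 were lower and 8 higher at an unadjusted p under 0.05. Their groups did not overlap in 15 lower and 13 higher genes, against 10.8% and 11.3% of all tested genes.

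**Figure D4:**
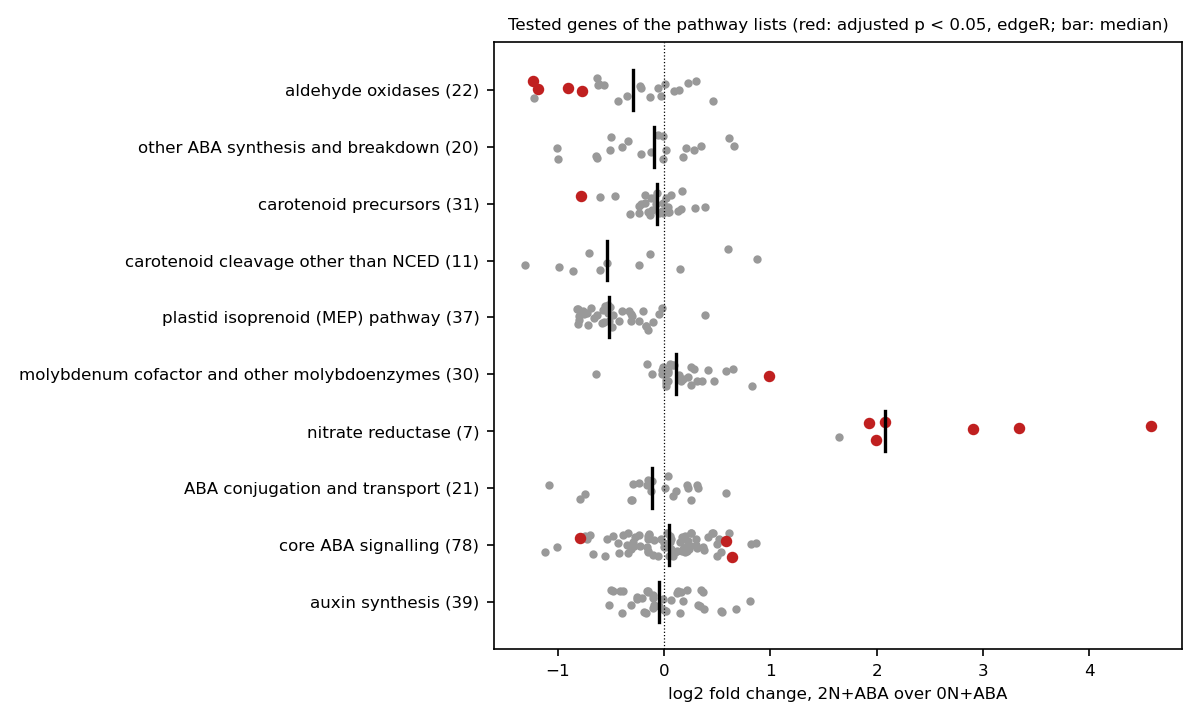
Log2 fold changes (x axis, 2N+ABA over 0N+ABA) of the tested genes of each list, 1 point per gene, with the number tested in parentheses, red where the adjusted p was under 0.05 and a bar at the median. The 4 red aldehyde oxidases lie between -1.23 and -0.77, the 6 red nitrate reductases between 1.93 and 4.58, and the isoprenoid pathway has a median of -0.51 without a red point.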

How the data were processed

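Poly(A)-selected RNA of wheat roots was sequenced in 6 libraries, 3 per group, and the protocols mention neither strand-specific preparation nor molecular identifiers, per the labels. HISAT and Bowtie2 are named without role or version per the submitters' processing notes, and the sources used here do not give the counting tool, genome build or annotation. For each sample the authors deposited estimated counts per gene and sample, not scaled between samples, and TPM values, per the file headers. Left unused were 22 further value columns, of which 2 are means of other groups. A lookup in the RefSeq gene table found 0 of 83219 IDs, so chromosomes come from the IDs and no coordinates or sequences are given.

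After rounding the estimated counts to integers, edgeR 4.0.16 (R 4.3.3) was used (filterByExpr, TMM, glmQLFit and glmQLFTest, no covariate), 2N+ABA against 0N+ABA. The Benjamini-Hochberg adjustment covered the 53862 genes kept by the filter, which held 99.6% of the counts. Genes were said to rise or fall at an adjusted p under 0.05. The F statistic gave the standard errors and 95% intervals. CPM are rounded counts over the TMM-scaled library size, given in the order of replicates 1, 2 and 3, with mean ± SD over n = 3. TPM, as deposited, was used for levels between genes. Every gene of the set with a mean of at least 1 CPM is given in every library, and the others by range. From each list up to 4 called genes, or the 1 with the smallest p, are named. The genes, lists and rules were chosen with earlier results of these data known. Patterns for root cap and xylem names matched 0 genes. Alternatives were DESeq2 1.42.0, limma 3.58.1 (voom, and log2(TPM + 0.1)), other scalings and filters, a replicate block, and leaving out each library. The edgeR, DESeq2 and limma-voom fits were also run on simulated counts. Those counts held no outlying library and no reads shared among similar copies, so that run cannot tell how the fits handle either. Intervals and floors cover counting error and the spread between these libraries only.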

Additional observations from a re-analysis of the deposited data

How the results depend on the processing

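Over the 39 genes of the set with values given and 14 alternatives, 510 of 546 values kept their direction and their side of the threshold, 3 lost the call, 10 gained it and 23 changed sign. The genes called lower numbered 7 with DESeq2, 5 without a filter on low counts and 4 with each other scaling, filter, limma fit and the replicate block. They ranged from 2 to 10 when 1 library was left out, with 10 without 0N+ABA replicate 2. The genes called higher numbered 0 in every fit run. Over all genes, 2193 differed with DESeq2, 723 with the replicate block, and 283 to 4607 with 1 library left out. Of the list genes, 9 rose and 2 fell. With DESeq2 14 rose, and with limma-voom and on log2(TPM + 0.1) 1 fell. With 1 library left out 4 to 20 rose and 0 to 23 fell. Replicate numbers did not pair the libraries (correlations of deviations 0.076, -0.23 and -0.22 for numbers 1, 2 and 3, and no library correlated best with its own number). With the replicate block 0 list genes fell by edgeR, and the calls of TraesCS2B02G414500 and the SnRK2 genes were lost. The values that changed sign belong to genes without a call. With 1 library left out, their log2 fold changes ranged from -0.067 to 0.059 in TraesCS2A02G317000, -0.33 to 0.027 in TraesCS5A02G428200, -0.78 to 0.15 in TraesCS5B02G429900 and -0.23 to 0.023 in TraesCS5D02G435800. The ranges were -0.013 to 0.077 in TraesCS6A02G271300, -0.58 to 0.38 in TraesCS6A02G271600, -0.073 to 0.044 in TraesCS7A02G470400 and -0.22 to 0.13 in TraesCS7A02G509200. They were -0.040 to 0.54 in TraesCS7B02G417900, -0.23 to 0.35 in TraesCS7D02G498100 and -0.30 to 0.60 in TraesCS7D02G498300. Further changes of sign were -0.034 in TraesCS6A02G271300 on log2(TPM + 0.1), 0.00059 in TraesCS7D02G498100 with the replicate block and -0.00083 in TraesCS7D02G498300 with upper quartile factors. The cause was not tested. Depth limits the 15 genes of the set that did not pass the filter on low counts, for which no difference was tested.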
